A study of Homo sapiens with 9 samples.

Results

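The breast cancer subtype and growth factor receptors described here are 8 genes: ESR1, PGR, ERBB2, ERBB3, EGFR, MET, IGF1R and FGFR1. Transcript levels came from MDA-MB-231, an established human breast cancer line of the triple-negative type, grown in culture and infected with a lentivirus that expresses a short hairpin RNA. The 3 groups carried the scrambled hairpin shScr, the hairpin shCTDP1-#1 or the hairpin shCTDP1-#2, the last pair directed at CTDP1, and all had passed through puromycin selection. Each group held 3 libraries, 9 in all, and the labels do not say whether these came from separate cultures, so p-values measure only the spread between libraries, which may be technical. The deposited values are TPM (transcripts per 1000000, an abundance per transcript length scaled to the same total in each library) for genomic intervals without gene names. Each receptor was therefore identified as the hg19 interval with the highest ratio of overlap to union with the gene's known span. All 8 were found among 55527 intervals, with a ratio of at least 0.973, and 6 of them passed the filter of at least 1 TPM in at least 3 libraries that left 15011 intervals for testing.

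ESR1 and PGR encode the nuclear receptors for estrogen and progesterone, which act as ligand-dependent transcription factors. Together with amplification of ERBB2 they sort breast tumours into clinical subtypes, and a tumour without any of these features is called triple-negative. ERBB2, ERBB3 and EGFR belong to the ERBB family of receptor tyrosine kinases, which signal as pairs. MET, IGF1R and FGFR1 are receptor tyrosine kinases for hepatocyte growth factor, insulin-like growth factors and fibroblast growth factors. Ligand binding lets the paired kinases phosphorylate each other, and adaptors then pass the signal to the RAS-ERK and PI3K-AKT cascades, which in turn induce their own inhibitors.

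The target of the hairpins, CTDP1, which encodes a phosphatase for the tail of RNA polymerase II, gave 13.1, 12.4 and 12.01 TPM with shScr. It was at 2.46, 2.62 and 2.46 TPM with shCTDP1-#1 and at 3.77, 3.42 and 4.10 TPM with shCTDP1-#2. The knockdown libraries thus lay below all shScr libraries, and the libraries with shCTDP1-#2 lay above those with shCTDP1-#1. The log2 changes of CTDP1 were -1.94 (SE 0.10) and -1.50 (SE 0.10) against shScr, with limma adjusted p = 6.3e-08 and 4.0e-07, and the hairpins differed by 0.44 (SE 0.10, adjusted p = 0.0036). The line's label was set against marker levels: VIM, an intermediate filament of mesenchymal cells, ran from 3523 to 3641 TPM with shScr and CD44, an adhesion receptor, averaged 884 TPM, while CDH1, the epithelial cadherin, averaged 0.07 TPM. EPCAM, another epithelial adhesion molecule, was present at 7.93 ± 1.83 TPM (SD, n = 3). Changes were widespread in these libraries, which is the background for every count below: limma called 63.1% of the tested intervals with shCTDP1-#1 (35.4% higher, 27.7% lower), 64.0% with shCTDP1-#2 (39.5% higher, 24.6% lower) and 50.2% between the hairpins (30.2% higher and 20.0% lower with shCTDP1-#2). The split of called intervals depended on the scaling: with shCTDP1-#1, 5314 were higher and 4161 lower, against 4688 and 4802 after median-of-ratios scaling and 7632 and 2489 after upper-quartile scaling over the values above 0 in each library, chosen after seeing the data. With shCTDP1-#2 the called intervals were 5923 higher and 3689 lower, then 4595 and 4830, then 7105 and 2684, and between the hairpins 4535 and 3003, then 3756 and 3661, then 3295 and 4086. TPM keeps no read total, so the depth behind each value is unknown.

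In control cells the order of the receptor transcripts, from the highest mean, was FGFR1, MET, EGFR, ERBB2, IGF1R, ERBB3, PGR and ESR1. Neighbours in this order did not overlap between libraries, except PGR and ESR1, which were near 0. With shCTDP1-#1, FGFR1, EGFR and IGF1R rose, and the other 3 tested receptors were not called, so 3 of 6 were called against a background of 63.1%. With shCTDP1-#2, MET and IGF1R rose and ERBB2 fell, again 3 of 6, against 64.0%. Neither share exceeds the background. After upper-quartile or median-of-ratios scaling the 3 calls with shCTDP1-#2 were MET higher and ERBB2 and FGFR1 lower. The median log2 change of the 6 tested receptors was 0.40 with shCTDP1-#1, beside 0.07 over all tested intervals, and 0.05 with shCTDP1-#2, beside 0.13. FGFR1 stayed first in the order with shCTDP1-#1, where EGFR and MET came next and overlapped. With shCTDP1-#2, MET stood first, above FGFR1 in each library of that group.

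**Figure D1:**
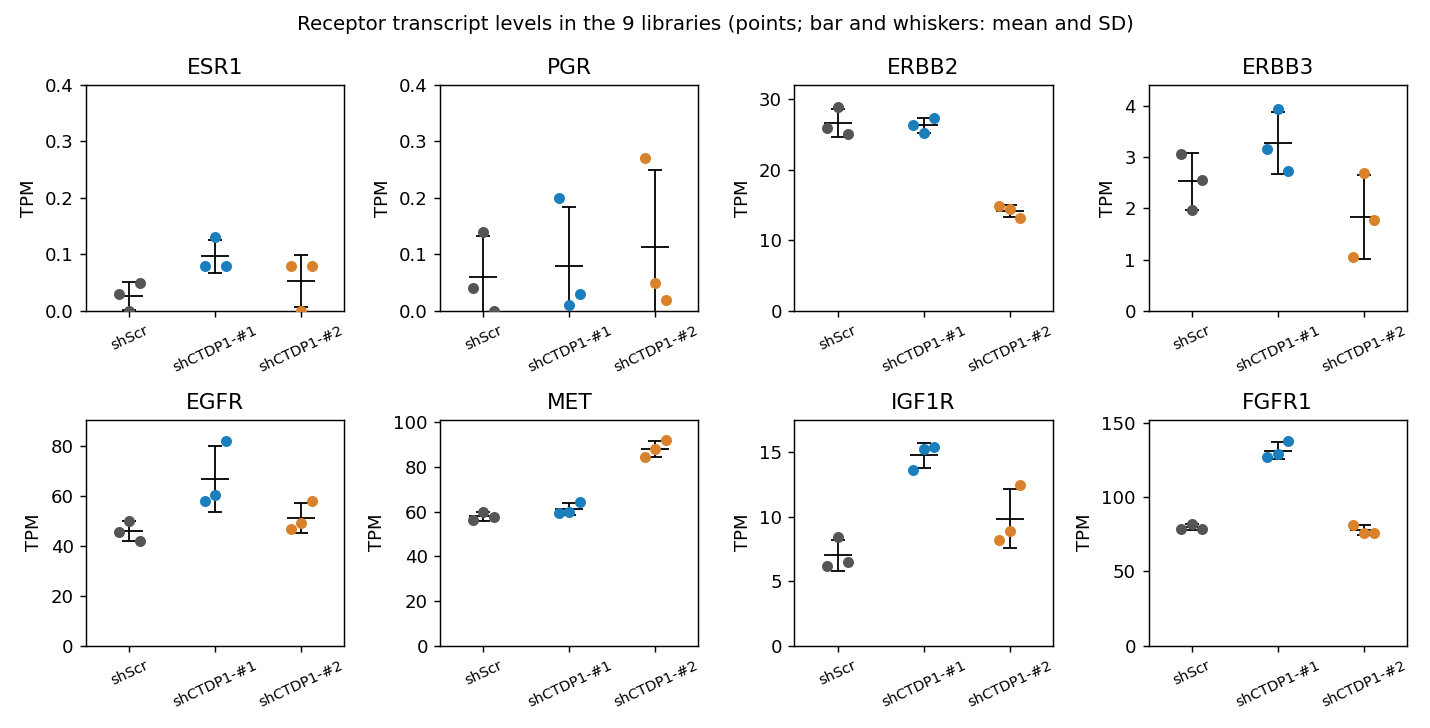
TPM of each receptor (vertical axis, starting at 0, with its own scale in each panel) in the 9 libraries (points) by hairpin, with the group mean and SD. FGFR1 is high in the 3 shCTDP1-#1 libraries, MET is high and ERBB2 low in the 3 shCTDP1-#2 libraries, and ESR1 and PGR stay under 0.3 TPM throughout.

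The hormone receptors were barely present. ESR1 (hg19, chromosome 6, 151977826 to 152450754) was listed at 0.03, 0.00 and 0.05 TPM with shScr, at 0.08, 0.13 and 0.08 TPM with shCTDP1-#1 and at 0.08, 0.00 and 0.08 TPM with shCTDP1-#2. PGR (chromosome 11, 100900355 to 101001255), whose transcription is a classical target of the estrogen receptor, was listed at 0.04, 0.14 and 0.00 TPM, then 0.20, 0.01 and 0.03 TPM, then 0.27, 0.05 and 0.02 TPM in the same order of groups. No library reached 0.3 TPM of either gene, both failed the filter, and neither was tested. For ESR1 the shCTDP1-#1 libraries all lay above the shScr libraries, at levels where the files carry only 2 decimals, and for PGR all groups overlapped. An interval of 516118 bases that shares 7936 bases with ESR1 was at 5.24 to 6.88 TPM with shScr, 14.2 to 21.1 TPM with shCTDP1-#1 and 15.8 to 17.9 TPM with shCTDP1-#2. The library kit does not mark the strand of origin, so a read in the shared stretch cannot be assigned by strand.

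ERBB2 encodes HER2, the ERBB member that has no known ligand of its own and serves as the preferred partner of the others. The interval (chromosome 17, 37844167 to 37886679) held 25.9, 28.9 and 25.1 TPM with shScr, 26.4, 25.2 and 27.3 TPM with shCTDP1-#1, and 14.9, 14.5 and 13.2 TPM with shCTDP1-#2. Libraries with shCTDP1-#1 and shScr overlapped, and the 3 libraries with shCTDP1-#2 lay below all others. The fall with shCTDP1-#2 was -0.86 on the log2(TPM + 1) scale (SE 0.07, limma adjusted p = 2.8e-06), and that group also lay 0.85 below shCTDP1-#1 (log2 difference -0.85, adjusted p = 6.3e-06). With shCTDP1-#1 the value was -0.02, with a 95% confidence interval of -0.18 to 0.15 and adjusted p = 0.86. ERBB2 overlaps 3 other intervals, of which 2 were tested. The more abundant of them shares 1931 of its 2292 bases with ERBB2 and ran from 44.5 to 67.3 TPM. It rose with both hairpins, by 0.22 (adjusted p = 0.016) and 0.37 (adjusted p = 0.00062), and did not follow the fall of ERBB2. Together the 3 overlapping intervals reached up to 512% of the TPM of ERBB2 in a library. Because the kit does not mark the strand, reads in the shared stretches cannot be assigned by strand.

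ERBB3, a receptor for neuregulins with little kinase activity of its own, was the lowest of the tested receptors (chromosome 12, 56473641 to 56497289). It was at 3.07, 1.96 and 2.55 TPM with shScr, 3.16, 3.94 and 2.73 TPM with shCTDP1-#1, and 1.05, 2.69 and 1.77 TPM with shCTDP1-#2. Each knockdown group overlapped with shScr, and the knockdown groups narrowly did not overlap with each other. The log2 changes against shScr were 0.28 (95% interval -0.21 to 0.77, limma adjusted p = 0.29) and -0.34 (-0.83 to 0.14, adjusted p = 0.19), and between the hairpins -0.62 (-1.11 to -0.14, adjusted p = 0.036). That difference rested on single libraries: without shCTDP1-#1 replicate 1 or 2, or without shCTDP1-#2 replicate 1 or 3, it was not called, at -0.64, -0.51, -0.41 and -0.63 with adjusted p = 0.07, 0.12, 0.13 and 0.073. It also lost the call with no filter (adjusted p = 0.078). Without shCTDP1-#2 replicate 2, ERBB3 was called lower with shCTDP1-#2 than with shScr, at -0.55 (adjusted p = 0.041).

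EGFR, the receptor for EGF, TGF-alpha, amphiregulin and related ligands, rose with shCTDP1-#1. Its interval (chromosome 7, 55086714 to 55324313) held 45.3, 50.0 and 41.9 TPM with shScr and 57.6, 60.3 and 81.6 TPM with shCTDP1-#1. With shCTDP1-#2 it held 46.6, 48.9 and 57.8 TPM. All shCTDP1-#1 libraries lay above all shScr libraries, while the shCTDP1-#2 libraries overlapped with both other groups. The log2 change was 0.52 with shCTDP1-#1 (SE 0.13, limma adjusted p = 0.0048) and 0.15 with shCTDP1-#2 (95% interval -0.13 to 0.44, adjusted p = 0.31). The difference between the hairpins was -0.36 (SE 0.13, adjusted p = 0.036). Without shCTDP1-#1 replicate 3, the highest library, EGFR still rose, by 0.36 (adjusted p = 0.01; 0.0033 to 0.021 over the libraries left out in turn). The difference between the hairpins was not called at -0.21 (adjusted p = 0.11) without that library. It also lost the call without shCTDP1-#2 replicate 1 (-0.30, adjusted p = 0.12) or replicate 2 (-0.34, adjusted p = 0.099), without shScr replicate 1 (adjusted p = 0.051), with no filter (adjusted p = 0.089) and in a fit of the 2 groups alone (adjusted p = 0.054). The 2 intervals that overlap EGFR summed to at most 0.243% of its TPM in a library.

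MET, the receptor for hepatocyte growth factor, rose with shCTDP1-#2 (chromosome 7, 116312444 to 116438440). Values were 56.2, 60.0 and 57.5 TPM with shScr and 59.2, 59.7 and 64.2 TPM with shCTDP1-#1, which overlapped. With shCTDP1-#2 they were 84.3, 87.9 and 91.9 TPM, above every library of the other groups. The log2 change was 0.60 with shCTDP1-#2 (SE 0.05, limma adjusted p = 3.0e-06), and that group exceeded shCTDP1-#1 by 0.52 (SE 0.05, adjusted p = 1.4e-05). With shCTDP1-#1 the value was 0.08, with a 95% interval of -0.04 to 0.19 (adjusted p = 0.22). No other interval overlaps MET. The ligand HGF averaged at most 0.04 TPM in any group and was not tested.

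IGF1R, the receptor for both insulin-like growth factors, was higher with both hairpins, more clearly with shCTDP1-#1 (chromosome 15, 99192200 to 99507759). It was at 6.16, 8.41 and 6.46 TPM with shScr, at 13.6, 15.3 and 15.4 TPM with shCTDP1-#1 and at 8.19, 8.89 and 12.5 TPM with shCTDP1-#2. The shCTDP1-#1 libraries lay above all others, and the shCTDP1-#2 libraries overlapped with shScr. IGF1R rose by 0.99 on the log2 scale with shCTDP1-#1 (SE 0.15, limma adjusted p = 0.00021), a 1.98-fold change of TPM + 1, and by 0.43 with shCTDP1-#2 (SE 0.15, adjusted p = 0.029). The second call was fragile: without shScr replicate 1, shScr replicate 3 or shCTDP1-#2 replicate 3 the changes were 0.35, 0.38 and 0.26, with adjusted p = 0.097, 0.086 and 0.11. It was also lost with no filter (adjusted p = 0.067), after upper-quartile scaling (0.36, adjusted p = 0.054) and after median-of-ratios scaling (0.29, adjusted p = 0.11). The difference between the hairpins was -0.56 (SE 0.15, adjusted p = 0.011). The insulin receptor INSR, its closest relative, went from 5.81 ± 0.20 TPM (SD, n = 3) to 9.30 ± 1.36 TPM with shCTDP1-#1, a log2 change of 0.59 (adjusted p = 0.00066). IGF2R, which clears IGF2 and is not a tyrosine kinase, was at 53.6, 51.9 and 79.0 TPM with shCTDP1-#1 against 30.6 to 32.1 TPM with shScr and rose by 0.92 (adjusted p = 0.00029). In replicate 3 of shCTDP1-#1 EGFR and IGF2R were both well above the other 2 libraries of that group; what sets that library apart was not tested.

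Sequences before annotated start sites are given for 4 receptors. Each was called with at least 1 hairpin and has an available RefSeq window (build GRCh38.p14, not the hg19 build of the values). Each run is the 250 bases before an annotated start, 5′ to 3′ on the gene's plus strand, and these libraries do not show which start was in use. Capitals mark matches, on either strand, to the GC box GGGCGG, the TATA motif TATAAA, the ETS motif CCGGAAG or the AP-1 motif TGANTCA. For EGFR the first of 2 windows is shown. For ERBB2 the only available window is shown, and whether it is the gene's main start was not tested. Another tested interval shares 8884 bases with ERBB2. Whether the ERBB2 window holds sequence of that neighbour was not tested.
EGFR, chr7:55018767-55019016: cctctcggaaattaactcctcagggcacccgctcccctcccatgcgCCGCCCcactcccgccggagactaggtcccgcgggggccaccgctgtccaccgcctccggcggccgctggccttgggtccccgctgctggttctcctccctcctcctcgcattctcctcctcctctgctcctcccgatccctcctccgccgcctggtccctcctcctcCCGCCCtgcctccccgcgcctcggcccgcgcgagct
MET, chr7:116671946-116672195: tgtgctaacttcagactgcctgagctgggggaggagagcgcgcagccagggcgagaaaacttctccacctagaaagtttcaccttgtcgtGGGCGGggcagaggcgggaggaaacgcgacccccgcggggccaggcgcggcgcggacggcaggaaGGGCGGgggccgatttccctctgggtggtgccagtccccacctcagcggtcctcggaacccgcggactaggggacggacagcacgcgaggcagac
IGF1R, chr15:98648289-98648538: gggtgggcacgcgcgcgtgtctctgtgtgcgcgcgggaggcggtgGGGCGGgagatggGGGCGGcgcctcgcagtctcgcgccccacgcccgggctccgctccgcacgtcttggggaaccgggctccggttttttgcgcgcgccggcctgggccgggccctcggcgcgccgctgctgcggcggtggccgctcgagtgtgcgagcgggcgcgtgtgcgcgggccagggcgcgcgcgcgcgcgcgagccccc
ERBB2, chr17:39687844-39688093: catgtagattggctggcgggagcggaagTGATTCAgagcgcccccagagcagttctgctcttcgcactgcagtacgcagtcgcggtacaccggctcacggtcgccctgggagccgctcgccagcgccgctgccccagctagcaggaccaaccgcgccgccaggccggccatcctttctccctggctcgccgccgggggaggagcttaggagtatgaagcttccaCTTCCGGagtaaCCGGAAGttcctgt

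These windows of EGFR, MET and IGF1R are rich in G and C (73.6%, 68.4% and 81.2%, against a median of 58% over 35116 RefSeq windows) and hold 2 GC boxes each and no TATA motif. A GC box occurs in 42.6% of all windows and a TATA motif in 10.7%. The window of ERBB2 has 65.6% G and C, no GC box, 2 ETS motifs on opposite strands close to the start and 1 AP-1 motif, where 8.52% of all windows hold the ETS motif and 6.57% the AP-1 motif. The second EGFR window, an internal start, has 38.8% G and C, 2 TATA matches and 2 AP-1 matches. FGFR1, which also rose, has no window shown, so the windows do not describe all receptors that rose. A match describes letters in a window and does not show that a factor binds.

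FGFR1, a receptor for fibroblast growth factors and often amplified in breast cancer, was the most abundant of the 8 in control cells (chromosome 8, 38268656 to 38326352). It held 78.9, 82.2 and 78.9 TPM with shScr, 128, 129 and 138 TPM with shCTDP1-#1, and 81.6, 76.0 and 75.9 TPM with shCTDP1-#2. The shCTDP1-#1 libraries lay far above the rest, and the shCTDP1-#2 libraries overlapped with shScr. FGFR1 rose by 0.71 on the log2 scale with shCTDP1-#1 (SE 0.05, limma adjusted p = 4.1e-07). With shCTDP1-#2 the value was -0.04 (95% interval -0.14 to 0.06, adjusted p = 0.47), and after upper-quartile and median-of-ratios scaling it was called lower, at -0.11 and -0.19 (adjusted p = 0.037 and 0.0029). The hairpins differed by -0.75 (SE 0.05, adjusted p = 6.6e-07). The other FGF receptors moved differently. FGFR3 was at 1.15, 1.28 and 0.97 TPM with shScr and at 13.5, 13.5 and 16.0 TPM with shCTDP1-#1. With shCTDP1-#2 FGFR3 was at 12.3, 9.94 and 10.5 TPM, and the log2 changes were 2.85 and 2.48. The shScr libraries alone did not meet the filter for FGFR3, which entered the fit through the knockdown libraries, so no test is given. FGFR4 fell from 2.94 ± 0.32 TPM to 1.40 ± 0.24 and 0.98 ± 0.53 TPM (SD, n = 3), by 0.72 (adjusted p = 0.0078) and by 1.02 (adjusted p = 0.00091) on the log2 scale. FGFR2 averaged at most 0.37 TPM in any group and was not tested.

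All 6 tested receptors differed between the hairpins by the test of that difference, against a background of 50.2% of intervals. MET was higher with shCTDP1-#2, and ERBB2, ERBB3, EGFR, IGF1R and FGFR1 were lower, 5 of 6 where 20.0% of all tested intervals were called lower. The median difference of the 6 was -0.59, beside 0.07 over all tested intervals. The differences of ERBB2, MET, IGF1R and FGFR1 were called without any single library, those of ERBB3 and EGFR were not, and 4 to 6 receptors were called over the libraries left out in turn. Both comparisons with shScr share its libraries, so their values are given side by side and their likeness is not read as a result. CTDP1 also differed between the hairpins, as given above, and its part in these differences was not tested.

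**Figure D2:**
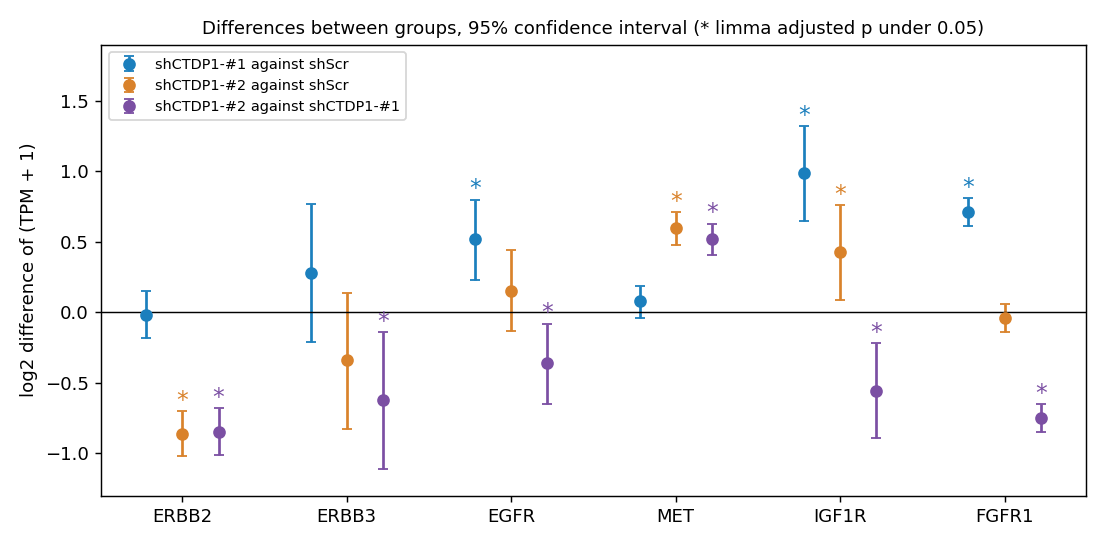
Differences in log2(TPM + 1) (vertical axis) of the 6 tested receptors in the 3 comparisons, with 95% confidence intervals from the limma fit and a star where the adjusted p is under 0.05. FGFR1 is at 0.71 with shCTDP1-#1 and -0.04 with shCTDP1-#2, MET at 0.08 and 0.60, ERBB2 at -0.02 and -0.86, and the intervals of IGF1R lie above 0 with both.

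The balance between receptors shifted accordingly. EGFR made up 61.0%, 61.8% and 60.2% of the summed TPM of EGFR, ERBB2, ERBB3 and ERBB4 in the shScr libraries, 66.0%, 67.4% and 73.1% with shCTDP1-#1, and 74.5%, 74.0% and 79.3% with shCTDP1-#2. The share was higher in each knockdown library than in any control library, by way of more EGFR with shCTDP1-#1 and less ERBB2 with shCTDP1-#2. The fourth member, ERBB4, averaged at most 0.11 TPM. The ratio of MET to FGFR1 was 0.724 ± 0.0096 with shScr (SD, n = 3), 0.464 ± 0.0016 with shCTDP1-#1 and 1.13 ± 0.09 with shCTDP1-#2. The ratio of MET to EGFR was 1.27 ± 0.09, 0.935 ± 0.13 and 1.73 ± 0.12 in the same order. The TPM of the 8 receptors together was 220 ± 10 with shScr, 304 ± 23 with shCTDP1-#1 and 243 ± 8.8 with shCTDP1-#2. For each of these 4 measures, each of the 3 comparisons had p = 0.1 in an exact permutation test (two-sided), the smallest value that 3 against 3 libraries allow, so no call at 0.05 was possible. A ratio within a library does not depend on the scaling between libraries.

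**Figure D3:**
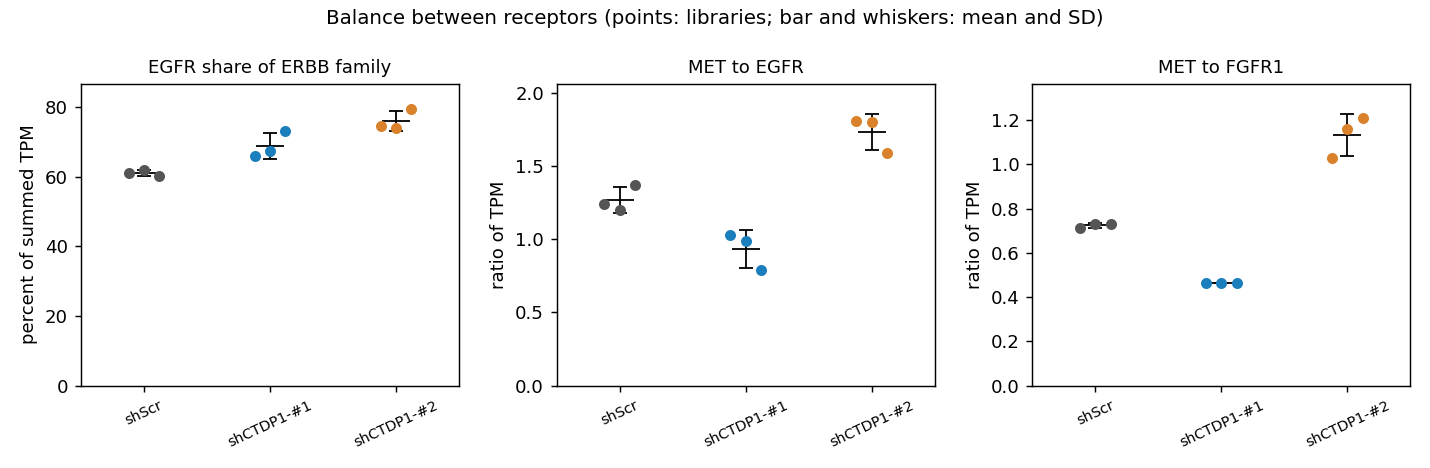
EGFR as a percent of the summed ERBB family TPM, and the ratios of MET to EGFR and MET to FGFR1, in each library (points) with group mean and SD; all axes start at 0. The ratio of MET to FGFR1 is lowest with shCTDP1-#1 (0.464) and highest with shCTDP1-#2 (1.13).

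Among 14 other receptors matched to an interval, 9 passed the filter. With shCTDP1-#1, 5 rose and 2 fell, with a median log2 change of 0.46 beside 0.07 over all tested intervals; with shCTDP1-#2, 4 rose and 1 fell, with a median of 0.14 beside 0.13, and after median-of-ratios scaling 1 rose and 1 fell. Upper-quartile scaling over values above 0 gave 7 higher and 1 lower, and 5 and 1. FGFR3 is counted among those that rose, though its shScr libraries alone did not meet the filter of the main fit. EPHA2, an ephrin receptor, was at 138, 153 and 143 TPM with shScr, 265, 281 and 298 TPM with shCTDP1-#1 and 176, 170 and 175 TPM with shCTDP1-#2. It rose by 0.95 with shCTDP1-#1 (limma adjusted p = 9.2e-08) and by 0.26 with shCTDP1-#2 (adjusted p = 0.0011), and median-of-ratios scaling ended the second call. KDR, a receptor for VEGF, averaged 3.45 TPM with shScr and rose by 0.46 with shCTDP1-#1 (adjusted p = 0.0086).

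Of 7 matched ligand genes 4 were tested, of which 3 rose and 0 fell with shCTDP1-#1 (3 and 1 after median-of-ratios scaling) and 2 rose and 1 fell with shCTDP1-#2 (3 and 0 after upper-quartile scaling over values above 0). Their median log2 changes were 1.01 and 0.59, beside 0.07 and 0.13 over all tested intervals. HBEGF, the heparin-binding EGF-like ligand of EGFR, went from 65.1, 64.7 and 63.6 TPM with shScr to 164, 173 and 168 TPM with shCTDP1-#1 and to 119, 111 and 110 TPM with shCTDP1-#2. These are log2 rises of 1.37 and 0.80 (limma adjusted p = 2.4e-09 and 7.7e-08). EREG, which encodes epiregulin, rose by 1.68 and 1.09 (adjusted p = 3.4e-07 and 8.4e-06) from 2.23 ± 0.27 TPM (SD, n = 3). AREG, which encodes amphiregulin, followed another course: 42.3, 42.3 and 41.3 TPM with shScr, 64.4, 65.6 and 67.3 TPM with shCTDP1-#1 and 34.5, 37.3 and 36.4 TPM with shCTDP1-#2. AREG rose by 0.64 with shCTDP1-#1 (adjusted p = 9.4e-07) and fell by 0.21 with shCTDP1-#2 (adjusted p = 0.0022), the latter not called after upper-quartile scaling over values above 0. EGF itself was at 1.34 ± 0.24 TPM with shScr and 0.81 ± 0.13 and 2.06 ± 0.44 TPM with the hairpins, a difference between the hairpins of 0.75 (adjusted p = 0.0029). IGF1 and FGF2 averaged at most 0.03 TPM in any group.

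Of 22 adaptors and kinases downstream, all tested, 7 rose and 8 fell with shCTDP1-#1; 12 rose and 5 fell with shCTDP1-#2, or 8 and 6 after median-of-ratios scaling. Upper-quartile scaling over values above 0 turned these to 9 higher and 3 lower, and 15 and 4. Their median log2 change was -0.12 and 0.24, beside 0.07 and 0.13 over all tested intervals. SHC1, an adaptor that binds phosphorylated receptors, rose from 102 ± 11 TPM to 161 ± 3.74 and 164 ± 13.6 TPM (SD, n = 3), by 0.65 and 0.68 (limma adjusted p = 3.8e-05 and 2.8e-05). GAB1, a docking protein of EGFR and MET, rose by 0.74 and 0.53 (adjusted p = 3.6e-05 and 0.00043). IRS2, a docking protein of IGF1R and INSR, rose by 0.54 and 0.67 (adjusted p = 0.001 and 0.00021) from 8.95 TPM with shScr. Its relative IRS1 fell from 33.7 ± 2.1 TPM to 23.8 ± 1.01 and 25.1 ± 1.13 TPM. The log2 changes of IRS1 were -0.49 and -0.41 (adjusted p = 7.8e-05 and 0.00026). MAPK3, the kinase ERK1, fell by 0.50 and 0.83 (adjusted p = 0.00076 and 1.8e-05). SOS1, which loads RAS with GTP, was higher with shCTDP1-#2 than with shCTDP1-#1 by 0.54 (adjusted p = 0.0035).

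Among 12 feedback inhibitors and ERK targets, 2 rose and 5 fell with shCTDP1-#1, and 3 rose and 7 fell with shCTDP1-#2 (medians -0.08 and -0.28). Upper-quartile scaling over values above 0 turned these to 7 higher and 3 lower, and 3 and 5. DUSP6, a phosphatase of ERK that ERK itself induces, fell from 413, 424 and 416 TPM with shScr to 222, 214 and 226 TPM with shCTDP1-#1 and to 358, 346 and 352 TPM with shCTDP1-#2. The log2 changes of DUSP6 were -0.92 and -0.25 (limma adjusted p = 5.5e-09 and 6.8e-05). ERRFI1, an inhibitor of ERBB kinases also called MIG6, fell by 0.37 and 0.52 (adjusted p = 8.9e-06 and 7.3e-07). EGR1, an early growth response factor, fell by 1.11 with shCTDP1-#1 (adjusted p = 7.3e-06) and by 0.32 with shCTDP1-#2 (adjusted p = 0.025). The second call was lost without shScr replicate 1, shScr replicate 2 or shCTDP1-#2 replicate 2. No filter and upper-quartile scaling over values above 0 also ended it. EGR1 was 0.79 higher with shCTDP1-#2 than with shCTDP1-#1 (adjusted p = 0.00015). SPRY4, an inhibitor of RAS-ERK signalling, went the other way and rose by 0.64 and 0.53 (adjusted p = 2.4e-06 and 9.2e-06), as did PHLDA1, by 0.27 and 0.62 (adjusted p = 4.1e-05 and 9.9e-08). Neither protein nor phosphorylation was measured.

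**Figure D4:**
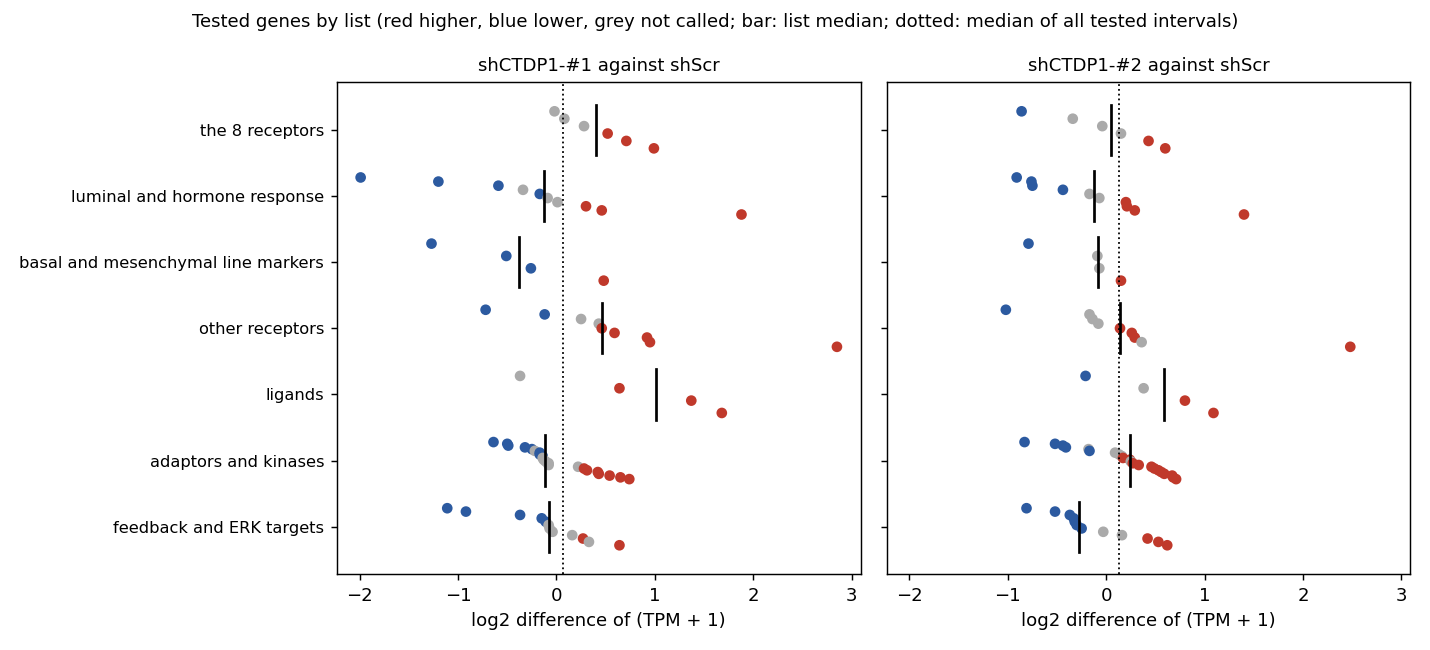
Log2 differences in TPM + 1 from shScr (horizontal axis) of the tested genes of each list with shCTDP1-#1 (left) and shCTDP1-#2 (right); red points were called higher, blue lower, grey not called, bars are list medians and the dotted line is the median of all tested intervals. The receptors' median is 0.40 on the left and 0.05 on the right, and FGFR3 is the rightmost point in both panels. FGFR3 and TFF1 met the filter only with the knockdown libraries.

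Genes that mark the luminal subtype or respond to sex hormones moved in both directions: of 10 tested, 3 rose and 4 fell with shCTDP1-#1, and 4 rose and 4 fell with shCTDP1-#2. The counts were 3 and 5, and 2 and 5, after median-of-ratios scaling, and 4 and 2, and 4 and 3, after upper-quartile scaling over values above 0. SPDEF, a luminal ETS factor, fell from 62.8, 67.8 and 65.4 TPM with shScr to 15.7, 18.2 and 13.5 TPM and to 36.2, 36.7 and 30.3 TPM, by 1.99 and by 0.91 (limma adjusted p = 7.8e-08 and 2.4e-05). GATA3, a luminal lineage factor, fell from 4.15 ± 0.42 TPM to 1.24 ± 0.16 and 2.05 ± 0.36 TPM (SD, n = 3), by 1.20 and by 0.76 (adjusted p = 2.6e-05 and 0.00068). TFF1, a secreted protein known as an estrogen target, was listed at 0.00, 0.47 and 0.00 TPM with shScr, at 1.79, 2.93 and 5.67 TPM with shCTDP1-#1 and at 1.63, 2.17 and 2.26 TPM with shCTDP1-#2. TFF1 passed the filter through the knockdown libraries alone, so it had to differ from shScr and its values are given with no test. The counts of luminal genes that rose include TFF1. FOXA1 averaged under 1 TPM in each group and was not tested.

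Of the 8 markers that describe the line, 4 were tested. With shCTDP1-#1, 1 rose and 3 fell (0 and 3 after median-of-ratios scaling, 2 and 2 after upper-quartile scaling over values above 0), and with shCTDP1-#2, 1 rose and 1 fell (0 and 2, and 1 and 1). VIM fell from 3576 ± 59.6 TPM (SD, n = 3) to 1480 ± 50.7 and 2069 ± 63.3 TPM, by 1.27 and by 0.79 (limma adjusted p = 1.2e-09 and 2.8e-08). CD44 fell by 0.26 with shCTDP1-#1 (adjusted p = 0.00019) and rose by 0.15 with shCTDP1-#2 (adjusted p = 0.0077). Upper-quartile scaling over values above 0 ended its first call, and upper-quartile scaling its second. CAV1, another marker of the line, fell by 0.51 with shCTDP1-#1 (adjusted p = 3.0e-06). With shCTDP1-#2 CAV1 was not called (-0.07, adjusted p = 0.17), but upper-quartile scaling called it lower (-0.15, adjusted p = 0.016). CDH1 was under the filter, as were the basal keratins KRT5, KRT14 and KRT17. EPCAM was lower with shCTDP1-#2 than with shCTDP1-#1 by 0.57 (adjusted p = 0.013), and the call was lost without shCTDP1-#1 replicate 1 (adjusted p = 0.053).

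Likeness of pattern was measured as the root mean square difference of log2(TPM + 1), each gene centred on its mean over the 9 libraries, against the other tested genes of the lists and CTDP1. FGFR1 was most like AREG (0.091) and EPHA2 (0.135), with a median of 0.421 over its 67 candidates. MET was most like BRAF (0.097) and PHLDA1 (0.102), and ERBB2 was most like ETV4 (0.101), an ETS factor and ERK target, then MAPK3 (0.254). EGFR was most like CBL (0.10), a ubiquitin ligase for activated receptors, and then the keratin KRT8 (0.176). IGF1R was most like EPHA2 (0.169) and EGFR (0.235), and ERBB3 was most like AREG (0.273) and KDR (0.289). ETV4 fell from 86.4 ± 2.7 TPM with shScr to 49.0 ± 2.0 TPM with shCTDP1-#2 (SD, n = 3), by 0.81 on the log2 scale (limma adjusted p = 1.3e-07). The genes share libraries, and closeness describes these 9 libraries only.

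The genes around the receptors gave mixed calls. Within 500 kb of ERBB2, 21 other intervals that do not overlap it were tested, of which 9 rose and 3 fell with shCTDP1-#2, with a median log2 change of 0.09, where ERBB2 fell by 0.86. Within 500 kb of FGFR1, 3 of 13 rose and 4 fell with shCTDP1-#1, with a median of 0.09, where FGFR1 rose by 0.71. Around MET, 4 of 8 rose and 1 fell with shCTDP1-#2, with a median of 0.28. Around EGFR and IGF1R only 3 and 2 intervals could be tested.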

How the data were processed

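RNA of 9 MDA-MB-231 libraries (3 per hairpin) was analysed from tables in which the authors deposited 1 TPM value per genomic interval, with 2 decimals. The unit is inferred from the values, which sum to about 1000000 in each library, and the read depth is unknown. The build (hg19) and the tools STAR and RSEM are named per the submitters' processing notes; tool versions are not given in the sources used here. The files were joined on coordinates, and 2246 of 57773 rows were dropped because another row has the same interval.

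The receptors' hg19 spans came with the list of members, and those of 79 further genes (CTDP1 and 6 lists) were written from general knowledge, rounded to kb; 75 of the 79 matched at a ratio of overlap to union of at least 0.8 (not GREB1, DDR1, TGFA and BTC). All 75 lie on the chromosome given by GENCODE v29 (GRCh38), and 72 have a length within 5% of it (not GATA3, FOXA1 and CBL). Among the receptors ERBB3, EGFR and FGFR1 differ by more. Members and lists were chosen with earlier results of these data known.

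The 15011 intervals that reached 1 TPM in 3 or more libraries were fitted as log2(TPM + 1) with limma 3.58.1 (trend and robust options; R 4.3.3, statmod 1.5.0), all libraries in 1 fit, with Benjamini-Hochberg adjusted p under 0.05 over all intervals. This scale understates the change of low genes. The fit was tested on simulated data. In each list the text names up to 4 genes called the same way with both hairpins without overlap with shScr and up to 2 that differ most between hairpins, besides the 2 genes most like each receptor and, chosen after their values were seen, genes near 0 and relatives of a receptor; some genes under this rule are not reported here. Alternatives were other pseudocounts, no filter, 3 scalings, fits of 2 groups, a replicate block and each library left out.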

Additional observations from a re-analysis of the deposited data

Results flagged for a closer look

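Each tested receptor stood out because the hairpins gave different values in the limma test of the difference itself (adjusted p under 0.05, n = 3 libraries per group). The log2 difference, shCTDP1-#2 minus shCTDP1-#1, was -0.85 for ERBB2, -0.62 for ERBB3, -0.36 for EGFR, 0.52 for MET, -0.56 for IGF1R and -0.75 for FGFR1. Among all tested intervals 50.2% passed this test, and the absolute differences of ERBB2, FGFR1 and ERBB3 lay at the 92.9, 89.7 and 84.2 percentile of all intervals, that of EGFR at the 61.2 percentile. CTDP1 differed between the hairpins by 0.44; its part in these differences was not tested.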

How the results depend on the processing

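Upper-quartile scaling over the values above 0 in each library was added after seeing the data; the other alternatives were planned. That scaling moved the median of all tested intervals to 0.29 with shCTDP1-#1 and 0.25 with shCTDP1-#2, from 0.07 and 0.13 with TPM as deposited, and called 5 receptors with shCTDP1-#1 in place of 3. Under it ERBB2 with shCTDP1-#1 turned to 0.23 (adjusted p = 0.019), ETV4 with shCTDP1-#1 to 0.10 (adjusted p = 0.095) and FGFR1 with shCTDP1-#2 to 0.09 (adjusted p = 0.1), and MET with shCTDP1-#1 was called at 0.32 (adjusted p = 0.00033). The uncalled ERBB2 value with shCTDP1-#1 also turned to 0.04 without shScr replicate 2 and to 0.01 without shCTDP1-#1 replicate 2 (range -0.06 to 0.04 over the libraries left out), and that of MET reached 0.00 after median-of-ratios scaling. The cause was not tested. Counts of called intervals stayed within 1.5 times their value in every alternative. Leaving out each library in turn gave 3 called receptors with shCTDP1-#1, 2 to 4 with shCTDP1-#2 and 4 to 6 between the hairpins. Of the single-gene values recomputed, 1567 kept their direction and side of the threshold, 64 lost the call, 4 gained it and 6 turned.

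Replicate numbers recur in each group, and the main fit does not pair the libraries by them. Residuals of same-numbered libraries correlated at -0.01 to 0.05 (9 pairs), and those of other numbers at -0.05 to 0.02 (18 pairs). Though weak, the likeness followed the numbers: 8 of the 9 libraries had their highest correlation with a same-numbered library. What the numbers stand for was not tested. With the replicate block 9393, 9517 and 7425 intervals were called in the 3 comparisons and 3, 3 and 5 receptors, ERBB3 being lost between the hairpins (adjusted p = 0.051). The depth is unknown, and groups of 3 limit the precision.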
